A study of Mus musculus with 18 samples.

Results

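The 34 genes described here mark T cells, natural killer (NK) cells and the intraepithelial lymphocytes that sit between the epithelial cells of the gut. They were taken from a given list by gene symbol, each read from its brightest probe set averaged across the 18 arrays. Of the 34, 33 had a probe set on the array, 1 probe set each, among 19938 named genes in the series. Lck, the kinase that starts T cell receptor signalling, had no probe set under that symbol and was not analysed here. A further pair, Klrk1 and Ncr1, stayed at or below the 25th percentile of all probe sets on all 18 arrays, so 31 of the 33 were tested, among 17316 genes tested.

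Expression was measured on 18 Affymetrix arrays in 6 groups of 3 mouse samples. Stat3-deleted intestinal epithelial cells (Stat3-/-, replicates 4 to 6) were set against control epithelial cells (Stat3fl/fl, replicates 1 to 3). Stat3-deleted tumours of male mice (replicates 10 to 12) and of female mice (replicates 16 to 18) were set against control tumours of male mice (replicates 7 to 9) and of female mice (replicates 13 to 15). Controls carried floxed Stat3 alleles without deletion, and the deleted mice carried the same floxed alleles with Villin-cre. The series text places the tumours in APCmin/+ mice, whose tumours form mainly in the small intestine. The sample labels instead call them colorectal and chemically induced, with azoxymethane and dextran sulfate. Neither the segment nor this treatment is therefore settled by the labels. Cre was driven by the Villin promoter, which is active in gut epithelium, so lymphocytes were not a target of the deletion. Age, pooling and the number of animals were not stated, so a p-value here reflects only how far these samples scattered, part of which may be technical. The labels give no sex for the epithelial cells. Xist and the Y-linked Eif2s3y put all 6 epithelial arrays at the values of male tumours, so female tumours differ from the epithelial cells in sex as well as in tissue.

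Intraepithelial lymphocytes of the mouse gut are mostly CD8-bearing T cells with alpha-beta or gamma-delta receptors, held in the epithelium by the integrin alpha-E beta-7. They are loaded with granzymes and depend on interleukin 15 presented by epithelial cells. CD3 chains transmit the T cell receptor signal through kinases and adaptors, NK receptors tune killing, and granule proteins carry it out. When gut epithelium is isolated, these lymphocytes commonly come with it. In bulk samples such as these, fewer cells of a type and less RNA per cell cannot be told apart.

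The measurement is the deposited log2 expression value of a probe set, on which a difference of 1 is a doubled signal. A gene was called changed at a Benjamini-Hochberg adjusted p under 0.05 over all 17316 tested genes in limma. Stat3 checked the labels. It averaged 7.87 ± 0.13 in deleted and 9.83 ± 0.08 in control epithelial cells, (SD, n = 3 each), and deleted tumours of both sexes differed from control tumours by -1.98 (limma adjusted p = 4.12e-08). The 3 deleted values were below the 3 control values in epithelial cells, in male tumours and in female tumours. Array medians lay between 5.88 and 6.07. Epithelial cell marker genes averaged 10.63 to 11.36 on the 12 tumour arrays and 11.05 to 11.29 on the 6 epithelial arrays. Fibroblast markers averaged 8.65 to 10.23 on tumour arrays and 6.16 to 6.58 on epithelial arrays. Endothelial markers averaged 7.27 to 7.83 on tumour arrays and 5.41 to 5.67 on epithelial arrays. Macrophage and dendritic cell markers averaged 6.77 to 8.45 on tumour arrays and 5.79 to 6.21 on epithelial arrays. Each of the last 3 lists was higher on every tumour array than on any epithelial array.

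The 250 bases before the start of 4 members are printed because these members had the largest epithelial differences among those with a single entry in the RefSeq promoter table (GRCm38.p6), which matched 24 of the 33 members. Capitals mark 3 core motifs searched on both strands: TGTGGT or ACCACA (RUNX), GGTGTGA or TCACACC (T-box) and AGGAAG or CTTCCT (ETS), and none overlaps another in these windows. RUNX and T-box factors direct the cytotoxic programme of lymphocytes, and ETS factors act in most blood cells.
Gzmb, chr14:56262335-56262584, minus strand: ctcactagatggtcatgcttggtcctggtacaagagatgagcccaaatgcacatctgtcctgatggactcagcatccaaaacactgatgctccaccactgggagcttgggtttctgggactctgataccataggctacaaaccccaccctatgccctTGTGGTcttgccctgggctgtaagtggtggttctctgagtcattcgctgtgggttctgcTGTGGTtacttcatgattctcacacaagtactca
Nkg7, chr7:43436888-43437137, plus strand: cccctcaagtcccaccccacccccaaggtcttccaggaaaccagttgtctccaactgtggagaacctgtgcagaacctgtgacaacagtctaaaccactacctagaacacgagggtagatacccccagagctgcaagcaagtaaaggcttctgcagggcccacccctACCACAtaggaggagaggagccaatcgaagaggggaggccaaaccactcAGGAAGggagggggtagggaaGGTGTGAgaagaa
Gzma, chr13:113100982-113101231, minus strand: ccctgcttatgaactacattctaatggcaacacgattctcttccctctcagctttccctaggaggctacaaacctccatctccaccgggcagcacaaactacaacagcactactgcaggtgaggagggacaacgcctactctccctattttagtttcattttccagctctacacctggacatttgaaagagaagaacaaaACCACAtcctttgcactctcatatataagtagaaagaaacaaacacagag
Cd3g, chr9:44980432-44980681, minus strand: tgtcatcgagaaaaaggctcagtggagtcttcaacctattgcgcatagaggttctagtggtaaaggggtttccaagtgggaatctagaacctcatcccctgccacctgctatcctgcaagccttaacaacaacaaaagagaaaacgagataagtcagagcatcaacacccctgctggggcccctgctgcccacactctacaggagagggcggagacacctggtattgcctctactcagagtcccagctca

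Gzmb held the RUNX letters at 2 places and Gzma at 1, while Nkg7 held all 3 motifs once and Cd3g none. Over the 24 members with an entry, the RUNX letters occurred in 11 (45.8%), against 15.9% of all 27025 genes in the table. The T-box letters occurred in 4 members (16.7%), against 3.84% of all genes. The ETS letters occurred in 13 members (54.2%), against 32.3% of all genes. These are counts of letters and not of bound factors, and no binding was measured.

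Across the 6 groups, the members stood highest in Stat3-deleted epithelial cells. Their mean was highest in that group for 30 of the 31 tested members, a position held by 29.3% of all tested genes. The exception was Cd2, an adhesion receptor of T and NK cells, whose mean was highest in control tumours of female mice. Averaged over all 33 genes, the list lay at 7.48, 6.59 and 6.40 on the deleted epithelial arrays (replicates 4, 5 and 6). It lay at 5.94, 5.91 and 6.24 on the control epithelial arrays (replicates 1, 2 and 3) and between 5.31 and 5.74 on the 12 tumour arrays. No tumour array reached the lowest epithelial array, and the deleted and control epithelial arrays did not overlap.

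Stat3 deletion in epithelial cells was compared first, since the series asks what loss of Stat3 in the epithelium does. None of the 31 members passed the adjusted threshold in limma, where 0% of all tested genes were called higher and 0.0231% lower. All 31 differences were nevertheless above 0, against 50.7% of all genes, with a median of 0.91 on the log2 scale where the median of all genes was 0.00. At an unadjusted p under 0.05, 23 members were higher and 0 lower, against 2.69% and 4.11% of all genes. For 20 members all 3 deleted arrays lay above all 3 control arrays, against 6.3% of all genes. The members share the same 6 arrays and move together, so these counts are not 31 separate observations.

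Replicate 4 carried much of this difference. It was the highest of the 6 epithelial arrays for 30 of the 31 members, against 30.7% of all genes, and exceeded the mean of replicates 5 and 6 by a median of 1.04. Without replicate 4, 0 members were called (0% of all genes higher and 0.0116% lower), 12 were higher at an unadjusted p under 0.05 (1.03% of all genes), and the median difference was 0.53. The difference stayed above 0 for 30 of 31 members. For 20 members, the same 20 as before, both remaining deleted arrays lay above all control arrays, against 8.4% of all genes. This number could not change for the members, since replicate 4 was not the lowest deleted array for any of them. Among the controls, replicate 3 was the highest for 26 of the 31 members (43.5% of all genes). Replicate 4 also had the lowest mean of the epithelial markers, at 11.05 against 11.24 to 11.29 on the other 5 epithelial arrays, and the highest mean of the handling stress genes, at 9.03 against 8.45 to 8.78. The part of these shifts in the members' difference was not tested.

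In the group of CD3 chains and coreceptors, 5 of 7 members were higher at an unadjusted p under 0.05 (2.69% of all genes), or 2 without replicate 4 (1.03%). The CD3 chains assemble with the T cell receptor and carry its signal into the cell. Cd3e measured 9.39, 8.04 and 7.93 in deleted epithelial cells, against 7.19, 7.26 and 7.73 in control epithelial cells. The lowest deleted array was above the highest control array. The difference was 1.06 ± 0.28 (SE), a 2.09-fold higher value (limma adjusted p = 0.57), and 0.59 without replicate 4. Cd3g measured 9.64, 8.41 and 7.97 in deleted cells, against 7.09, 7.20 and 7.94 in control cells, which left its lowest deleted and highest control arrays nearly level. Cd3d measured 7.43, 6.03 and 5.86 in deleted cells, against 5.18, 5.40 and 5.66 in control cells. The differences of Cd3g and Cd3d were 1.27 and 1.03 with all arrays, and 0.78 and 0.53 without replicate 4. Cd247, the zeta chain that holds most of the activation motifs, was the member with the smallest difference, 0.20 with all arrays and -0.01 without replicate 4.

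Of the coreceptors, Cd8a and Cd8b1 encode the chains of CD8, of which intraepithelial lymphocytes often carry the alpha homodimer, and Cd4 marks helper T cells. Cd8a measured 9.53, 8.87 and 8.07 in deleted epithelial cells, against 7.78, 7.63 and 8.22 in control cells, so the groups overlapped. Its difference was 0.94 ± 0.37 (SE, limma adjusted p = 0.722) and 0.59 without replicate 4. Cd8b1 differed by 0.75, and by 0.30 without replicate 4. Cd4 measured 6.67, 5.62 and 5.94 in deleted cells, against 5.59, 5.42 and 5.89 in control cells. Its difference of 0.45 dropped to 0.15 once replicate 4 was left out, and its groups overlapped.

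In the signalling group, Themis, a regulator of T cell receptor signalling in the thymus, depended least on replicate 4. It measured 5.58, 5.22 and 5.47 in deleted cells, against 4.75, 4.40 and 4.76 in control cells. Themis was above the array's 25th percentile on 15 of the 18 arrays and above the array median on 0, so these values are low. The deleted arrays sat together above the controls, with a difference of 0.79 ± 0.17 (SE, limma adjusted p = 0.297) and 0.71 without replicate 4. Lat, the membrane adaptor phosphorylated by Zap70, was the opposite case. It measured 9.17, 7.39 and 6.72 in deleted cells, against 6.76, 6.61 and 6.64 in control cells. Its difference was 1.09 with all arrays and 0.38 without replicate 4, which stood 2.12 above the mean of replicates 5 and 6. Zap70, the kinase recruited to CD3, differed by 0.52, and by 0.16 without replicate 4.

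Of the 7 surface receptors, Cd226 had the smallest p of all members. Cd226, an activating receptor that binds nectin-like ligands and competes with Cd96, measured 5.83, 5.20 and 5.09 in deleted cells, against 4.60, 4.39 and 4.62 in control cells. The difference was 0.84 ± 0.16 (SE, limma adjusted p = 0.172), and 0.61 without replicate 4 (limma adjusted p = 0.714). Cd226 had rank 9 by p among all tested genes and still missed the threshold. Its values were low, above the array's 25th percentile on 10 of the 18 arrays and above the array median on 0. Itgae, the alpha-E chain that binds E-cadherin on epithelial cells, measured 9.12, 7.94 and 7.38 in deleted cells, against 6.82, 6.51 and 7.25 in control cells. Its difference was 1.29 ± 0.33 (SE, limma adjusted p = 0.558) and 0.80 without replicate 4. Cd7, abundant on intraepithelial lymphocytes, differed by 1.04, and by 0.49 without replicate 4. Cd96 differed by 0.91 and Cd160, a receptor for Tnfrsf14, by 0.46, or by 0.65 and 0.31 without replicate 4. The differences of Cd5 and Cd2 were 0.35 and 0.27 with all arrays, and 0.04 and 0.14 without replicate 4.

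The NK receptor group had 2 tested members, both higher at an unadjusted p under 0.05 (2.69% of all genes). Their median difference was 1.21, or 0.79 without replicate 4. Klrd1 encodes CD94, the partner of the NKG2 receptors on NK cells and many intraepithelial lymphocytes. It measured 7.28, 6.74 and 5.60 in deleted cells, against 5.05, 4.86 and 5.49 in control cells, and differed by 1.41 ± 0.35 (SE, limma adjusted p = 0.527). The difference was 1.04 without replicate 4. Il2rb, the beta chain shared by the interleukin 2 and 15 receptors, measured 8.14, 6.88 and 6.53 in deleted cells, against 5.95, 6.06 and 6.47 in control cells. Its difference was 1.02, and 0.54 without replicate 4. Klrk1 and Ncr1, which encode NKG2D and NKp46, measured 3.15 to 4.11 and 3.55 to 4.34 over all 18 arrays, below the level at which genes were tested.

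Of the granule and killing genes, 6 of 7 were higher at an unadjusted p under 0.05 (2.69% of all genes). Their median difference was 1.17, or 0.73 without replicate 4. Gzmb, a granzyme that triggers apoptosis, measured 10.56, 8.81 and 8.50 in deleted cells, against 7.54, 7.67 and 8.30 in control cells. Its difference was 1.45 ± 0.52 (SE, limma adjusted p = 0.702) and 0.82 without replicate 4. Gzma, a tryptase-like granzyme, measured 11.13, 9.75 and 9.33 in deleted cells, against 8.70, 8.32 and 9.24 in control cells, a difference of 1.32, and 0.79 without replicate 4. Gzma and Gzmb, whose promoters are printed above, did not overlap between the groups although replicates 3 and 6 came close. Cst7, a cathepsin inhibitor that limits granzyme activation, measured 7.27, 6.44 and 6.02 in deleted cells, against 5.36, 5.26 and 5.60 in control cells. Its difference was 1.17 ± 0.24 (SE, limma adjusted p = 0.245) and 0.82 without replicate 4. Gzmk differed by 1.03, and Fasl, the death ligand, by 0.69, or by 0.73 and 0.49 without replicate 4. Prf1, which encodes perforin, differed by 0.41, and by 0.24 without replicate 4. Nkg7, a granule membrane protein, differed by 1.33, and by 0.64 without replicate 4, which stood 2.05 above the mean of replicates 5 and 6.

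Of the secreted factors, Ccl5, a chemokine stored by cytotoxic lymphocytes, had the largest difference of all members. It measured 11.57, 10.37 and 9.95 in deleted cells, against 8.85, 8.53 and 9.91 in control cells. The difference was 1.53 ± 0.42 (SE), or 2.9-fold (limma adjusted p = 0.631), and 1.06 without replicate 4. Replicate 3 of the controls lay only just below replicate 6 of the deleted cells. Xcl1, a chemokine for cross-presenting dendritic cells, differed by 0.41 and Ifng by 0.29. Replicate 4 carried much of both, since they differed by 0.22 and 0.08 without it. The transcription factors Tbx21 and Eomes, which direct cytotoxic differentiation, differed by 0.57 and 0.30. For Tbx21 the difference was 0.40 without replicate 4. Eomes measured 4.87, 4.86 and 4.89 in deleted cells, against 4.46, 4.56 and 4.71 in control cells. It was the only member whose highest epithelial array was replicate 6 and not replicate 4, and its difference without replicate 4 was 0.30.

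How firmly the epithelial difference is called depends on the weight given to each array. When arrays were weighted by how well they fit their group, limma called 10 members higher (3.26% of all genes): Cd3e, Themis, Cd96, Cd226, Itgae, Gzmk, Cst7, Ccl5, Tbx21 and Eomes. That fit gave replicates 4, 5 and 6 weights of 0.298, 0.586 and 4.87, so it rested chiefly on replicate 6, and its median member difference was 0.57. Companion genes outside the list were also higher without passing the threshold. Ctsw, a cathepsin of cytotoxic lymphocytes, differed by 1.05 and Itgb7, the integrin partner of Itgae, by 0.96 (limma adjusted p = 0.402 and 0.401), and without replicate 4 these were 0.71 and 0.60. In the list of 25 tested T cell signalling and surface genes, 0 were called. At an unadjusted p under 0.05, 6 were higher (2.69% of all genes), or 2 without replicate 4 (1.03%). Lists of macrophages and dendritic cells, B and plasma cells, fibroblasts and endothelium had 0 called members and 0 at an unadjusted p under 0.05 in either direction, with medians of -0.01, 0.20, -0.01 and -0.09.

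In tumours the same deletion gave no called difference in any member. In male tumours 0 of 31 members were called, against 0.116% of all genes in each direction, and at an unadjusted p under 0.05 the members had 0 higher and 0 lower (2.19% and 5.32% of all genes). The median difference was 0.13, with 23 members above 0 where 42.1% of all genes were. Gzmb had the largest male difference, 0.92, with 5.50, 6.91 and 6.92 in deleted tumours, against 6.55, 4.87 and 5.13 in control tumours. These values overlapped (limma adjusted p = 0.771). In female tumours 0 members were called, against 0.0173% of all genes higher and 0.0866% lower, and the median difference was -0.07. At an unadjusted p under 0.05 the members had 0 higher and 1 lower, Ifng (2.05% and 2.98% of all genes). Fasl was the only member without overlap in males, higher in deleted tumours (2.06% of all genes). In females 4 members were without overlap and lower in deleted tumours, Fasl, Ifng, Nkg7 and Prf1 (10.4% of all genes). As shares of the 31 members these counts were 3.23% in males and 12.9% in females, both near the shares of all genes.

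Ifng, the interferon that activates macrophages and antigen presentation, was the member nearest to a call in tumours. Its values were low, above the array's 25th percentile on all 18 arrays but above the array median on 0. In females it measured 5.11, 4.76 and 4.77 in deleted tumours, against 5.68, 5.25 and 5.87 in control tumours. All deleted arrays lay below all control arrays, with a difference of -0.72 ± 0.19 (SE, unadjusted p = 0.00144 in limma, adjusted p = 0.412). In males it measured 4.77, 4.55 and 4.82 in deleted tumours, against 5.05, 4.77 and 5.09 in control tumours, with the groups meeting at 4.77. Over both sexes the difference was -0.49 ± 0.13 (SE, limma adjusted p = 0.112), where 0 of 31 members were called, against 0.289% of all genes higher and 0.422% lower. At an unadjusted p under 0.05, 0 members were higher and 1, Ifng, lower over both sexes (4.09% and 7.93% of all genes). With arrays weighted, Ifng was called lower in female tumours (-0.55, limma adjusted p = 0.038) and over both sexes (-0.43, limma adjusted p = 0.0442), where that fit called 2.73% and 5.47% of all genes lower. The highest control values, 5.87 in females and 5.09 in males, were those of replicates 15 and 9. These 2 tumours had high values of the hindgut gene Hoxd13, and no deleted tumour did. What gut position added to the Ifng difference was not tested. Without these 2 tumours, 0 members were called over both sexes (0.578% of all genes higher and 0.589% lower). The female and male effects on Ifng differed by -0.46 (limma adjusted p = 1), and 0 members were called for a difference between the sexes, nor had any an unadjusted p under 0.05 (0.479% of all genes higher and 0.456% lower).

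The effect in tumours was tested against the effect in epithelial cells. The difference between the effects was below 0 for all 31 members, with a median of -0.77, while 43.5% of all genes were above 0. None of the members was called, against 0.00578% of all genes in each direction, and 17 were lower and 0 higher at an unadjusted p under 0.05 (5.18% and 4.2% of all genes). Without replicate 4 this number was 9 (3.3% of all genes) and the median was -0.43. Themis had the smallest p, with effects of -0.13 in tumours and 0.79 in epithelial cells and a difference between them of -0.92 ± 0.20 (SE, limma adjusted p = 0.314). Nkg7 had the largest difference, -1.57 (limma adjusted p = 0.474), and it was -0.88 without replicate 4. With arrays weighted, Cd226, Gzmk and Themis were called, at -0.54, -0.93 and -1.09 (3.81% of all genes called lower).

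Tumours set against epithelial cells of the same genotype gave the called differences. In Stat3-deleted samples 29 of 31 members were lower in tumours and 0 higher, where 36.2% of all genes were called lower and 30.3% higher, and the median difference was -1.08. Without replicate 4, 27 were lower (29.9% of all genes) with a median of -0.87, and Il2rb and Zap70 were no longer called. Zap70 also lost its call without replicate 17. In control samples 13 were lower and 0 higher, against 35.3% and 30.4% of all genes, with a median of -0.42. The control count is near the share of all genes. The deleted comparison uses the same deleted epithelial arrays as the deletion comparison above, so high values there lower this difference too. All members of the granule group were called lower in deleted tumours, 7 of 7, against 3 of 7 in control tumours. Without replicate 4 in the shared fit these counts were 7 and 5. In the signalling group (3 of 3) and NK receptor group (2 of 2) all were also called in deleted tumours, against 0 in control tumours. Without replicate 4 the deleted counts fell to 2 of 3 and 1 of 2, against 0 in control tumours. The secreted factors (3 of 3) and transcription factors (2 of 2) were all called too, each against 2 in control tumours, with or without replicate 4.

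Gzma had the largest difference in both genotypes. It measured 5.98, 7.67 and 8.02 (lowest, median and highest of 6) in deleted tumours, against 11.13, 9.75 and 9.33 in deleted epithelial cells. In control tumours the lowest, median and highest were 5.74, 6.78 and 7.63, against 8.70, 8.32 and 9.24 in control epithelial cells. No tumour reached any epithelial array of its genotype. The differences were -2.80 ± 0.54 in deleted samples and -2.05 ± 0.54 in control samples (SE, limma adjusted p = 0.000424 and 0.00394). Gzmb differed by -2.66 in deleted and -1.53 in control samples (limma adjusted p = 0.000166 and 0.00775). Prf1, the perforin gene, differed by -0.96 and -0.39. Without replicate 4 the deleted differences of Gzma, Gzmb and Prf1 were -2.27, -2.03 and -0.79.

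Ccl5 measured 7.02, 8.18 and 8.33 (lowest, median and highest) in deleted tumours, against 11.57, 10.37 and 9.95 in deleted epithelial cells. In control tumours it measured 7.16, 7.96 and 8.40, against 8.85, 8.53 and 9.91 in control epithelial cells. The difference was -2.68 in the deleted samples and -1.32 in the control samples (limma adjusted p = 3.3e-05 and 0.00536). Without replicate 4 the deleted difference was -2.21. The deleted and control differences of Ccl5 were not called different from each other. Cd7 differed by -2.35 and -1.65, and Cd8a by -1.79 and -1.14, in deleted and control samples. Their deleted differences without replicate 4 were -1.81 and -1.44. Cd3e, by comparison, measured 6.65 to 7.17 in control tumours, against 7.19 to 7.73 in control epithelial cells, so the groups did not overlap but the difference of -0.48 missed the threshold (limma adjusted p = 0.0911). Its difference in deleted samples was -1.51 (limma adjusted p = 0.000113), and -1.04 without replicate 4.

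The other members called lower in control tumours were Cd3g, Cd247, Cd96, Cd160, Prf1, Xcl1, Tbx21 and Eomes, with differences between -0.93 and -0.39. Of these, Cd160 was the firmest, at -0.67 (limma adjusted p = 0.000407), called with each of the 9 control arrays left out in turn. Its values were low, above the array's 25th percentile on 15 of the 18 arrays and above the array median on 0. The arrays where it fell below that percentile were tumour replicates 7, 15 and 18. Prf1, Cd247, Cd96, Cd3g and Tbx21 had adjusted p values between 0.04 and 0.049, and each lost its call in 6 to 8 of those 9 fits. Without replicate 3, the control epithelial array highest for most members, Ccl5, Gzmb, Eomes and Xcl1 also lost theirs (limma adjusted p = 0.0573, 0.0503, 0.0536 and 0.082). Eomes measured 3.85 to 4.59 in tumours and was above the array's 25th percentile on only 6 of the 18 arrays. Gzmk, called lower in deleted tumours, was above it on 10. Both passed the filter mainly on epithelial arrays, where they are high, and most of their tumour values could not be told from background. For 12 members all control tumours lay below all control epithelial arrays (26.3% of all genes), and for 25 members in deleted samples (28.8% of all genes). Leaving out 1 control array changed the control count to 4 without replicate 3 (26.1% of all genes lower) and to 8 without replicate 2 (29.7%). With tumours of male mice only, chosen after the data were seen because all epithelial arrays had male values, 8 members were called lower in control samples (26.5% of all genes). The count was 19 when replicate 4, an array of the deleted cells, was left out of the shared fit (35.9%).

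Cd2 and Cd4 were not called in either genotype. Cd2 measured 5.43, 5.90 and 6.28 (lowest, median and highest) in deleted tumours, against 5.96, 5.43 and 5.67 in deleted epithelial cells, and differed by 0.17, or 0.30 without replicate 4. In control tumours it differed by 0.44 from control epithelial cells (limma adjusted p = 0.122). Cd4 differed by -0.29 in deleted and 0.21 in control samples (limma adjusted p = 0.172 and 0.327). The deleted value of Cd4 rested on replicate 4, without which it was 0.01. Both genes are also carried by cells other than intraepithelial lymphocytes, helper T cells in both cases and some myeloid cells for Cd4. Tumours and epithelial cells also differed in stroma, as the marker lists above show, and how much of a lower value came from the share of stroma in a tumour was not tested. Over 14 tested macrophage and dendritic cell genes, 9 were called higher in deleted tumours and 12 in control tumours (30.3% and 30.4% of all genes), so leukocyte genes did not all share the members' direction.

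Among the 3 tumours of a group, Gzma had the largest SD of the tested members in 3 of the 4 tumour groups, 1.05 in deleted males, 0.90 in deleted females and 0.78 in control females. In control males Cd3g had the largest SD, 1.06, and Gzma the next, 1.01. Gzma lay between 5.74 and 6.34 in replicates 8, 9, 10, 15 and 18 and between 7.38 and 8.02 in the other 7 tumours, which come from all 4 tumour groups. Gzmb was at its lowest in replicates 8, 9 and 10 (4.87, 5.13 and 5.50). Cd3e spanned only 6.65 to 7.17 over the 12 tumours. Replicate 15 had the highest value of the 12 tumours for 10 of 31 members, against 12.4% of all genes, among them Cd2 and Ifng. Replicates 9 and 15, both controls, also stood apart in 2 genes of gut position. Hoxd13, a gene of the hindgut, measured 8.25 and 9.10 there and 4.82 to 5.59 in the other tumours. Gata4, a factor of the upper small intestine, measured 6.92 and 6.84 there and 8.86 to 9.86 in the other tumours. Without these 2 tumours, Cd247, Cd96, Prf1 and Tbx21 were no longer called lower in control tumours.

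Male and female tumours did not differ by a called amount in any member, where 0.0173% of all genes were called higher and 0.00578% lower in males. At an unadjusted p under 0.05, 3 members were lower in male tumours and 0 higher (2.31% and 3.82% of all genes). Ifng differed by -0.40, Gzmb by -0.97 and Cd3g by -0.78, each with a limma adjusted p of 0.749. Replicate 8 had the lowest Cd3g value, 4.76. The other 5 male tumours measured 6.11 to 6.92, against 6.58 to 7.27 in the 6 female tumours, so the ranges overlapped. Without replicate 8 the Cd3g difference was -0.47 (unadjusted p = 0.0934 in limma).

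A companion list of 14 tested genes, named epithelial partners here, holds genes that recruit or keep intraepithelial lymphocytes. In bulk samples, which cells gave the signal of these genes was not measured. In deleted tumours 2 were called higher and 5 lower than in deleted epithelial cells, and in control tumours 3 were called higher and 6 lower than in control epithelial cells. As shares of 14, the lower counts lie near the 36.2% and 35.3% of all genes called lower, and the higher counts lie below the 30.3% and 30.4% called higher. Without replicate 4 the deleted counts were 2 higher and 4 lower. Il15, the cytokine on which intraepithelial lymphocytes depend, measured 5.22, 6.47 and 7.06 (lowest, median and highest) in deleted tumours, against 7.35, 7.90 and 8.06 in deleted epithelial cells. It measured 5.62, 5.72 and 5.97 in control tumours, against 8.15, 8.37 and 8.88 in control epithelial cells. The differences were -1.56 in deleted and -2.69 in control samples (limma adjusted p = 0.000632 and 5.9e-06). Btnl1 and Btnl2, butyrophilin-like proteins of the gut epithelium of which Btnl1 maintains gamma-delta intraepithelial lymphocytes in mice, were called lower too. Btnl1 differed by -1.41 and -2.69, and Btnl2 by -1.41 and -2.65, in deleted and control samples.

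The interferon-induced chemokines Cxcl9 and Cxcl10, which attract T cells bearing Cxcr3, went the other way. Cxcl9 was called higher in deleted tumours by 2.87 and in control tumours by 3.54, and Cxcl10 by 2.66 and 2.49 in the same order. Cxcl9 measured 7.72 to 10.04 in deleted tumours, against 5.96 to 6.43 in deleted epithelial cells. Cxcr3 itself measured 5.65 to 6.22 in deleted tumours, against 7.18, 6.42 and 6.40 in deleted epithelial cells, the highest being replicate 4. It differed by -0.81 there, which was called and to which replicate 4 added. In control samples it differed by -0.19, which was not called. Stat3 deletion in epithelial cells called none of the 14. At an unadjusted p under 0.05 there were 0 higher and 1 lower (2.69% and 4.11% of all genes). The 1 was Il18, an epithelial cytokine, with 6.07, 7.35 and 7.22 in deleted cells, against 8.80, 8.99 and 8.30 in control cells. That difference was -1.82 (limma adjusted p = 0.166), opposite in sign to the members. Replicate 4 had the lowest value, 6.07, and the other deleted values also lay below all control values.

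Ccl25, named here after its values were seen, is a chemokine of the small intestine that draws lymphocytes through Ccr9. It differed by -1.09 between deleted tumours and deleted epithelial cells (limma adjusted p = 0.123) and by -2.36 between control tumours and control epithelial cells (limma adjusted p = 0.00345). Its lowest values, 7.53 and 8.04, were those of replicates 9 and 15, and the other 10 tumours measured 9.71 to 11.32. Companion genes of the lymphocytes themselves were mixed in direction. The counts that follow stand beside 30.3% of all genes called higher and 36.2% lower in deleted tumours, and 30.4% and 35.3% in control tumours. Of 25 T cell signalling and surface genes, 1 was called higher and 10 lower in deleted tumours, and 6 higher and 5 lower in control tumours. The 10 lower were near the share of all genes, and without replicate 4 the deleted counts were 3 higher and 7 lower. Crtam, an activation receptor, differed by -0.84 and -0.56 and Cd27, a costimulatory receptor, by -0.67 and -0.57, in deleted and control samples. Fyn, a kinase expressed well beyond lymphocytes, differed by 0.42 in deleted samples, which was not called, and by 0.84 without replicate 4, which was. It was called higher in control tumours, by 1.52. Of 12 cytotoxic and NK receptor companions, 1 was called higher and 4 lower in deleted tumours, or 2 and 3 without replicate 4, and 4 higher and 2 lower in control tumours. Of 12 transcription factors the counts were 1 higher and 4 lower in deleted tumours, or 0 and 2 without replicate 4, and 2 higher and 1 lower in control tumours. Of 19 homing, residence and cytokine receptor genes they were 5 higher and 6 lower in deleted tumours, or 5 and 4 without replicate 4, and 6 higher and 2 lower in control tumours. Itga1, an integrin of resident lymphocytes that fibroblasts and smooth muscle also carry, was called higher by 1.76 in deleted and 2.40 in control tumours. The part of stroma in these counts was not tested.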

How the data were processed

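The values analysed are the log2 expression values deposited by the authors, 1 column for each of 18 arrays. Per the submitters' processing notes the tool was RMA, a background correction followed by quantile normalisation and probe summary. Its version is not given in the sources used here. Probe sets were named through the platform annotation: of 35556, 21789 had 1 symbol, 1621 several and 12146 were not listed there. Each of 19938 genes was read from its brightest probe set by mean. Genes above the array's 25th percentile in at least 3 arrays (17316) were tested in limma 3.58.1 (R 4.3.3) with a mean for each of 6 groups from the sample titles, eBayes with an intensity trend, two-sided tests and Benjamini-Hochberg adjustment. The self-test used simulated data. No depth applies to arrays, and the number of arrays limits precision. Replicate numbers 1 to 18 are unique over the series and pair no samples, and no batch was recorded.

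The text names all listed members, Stat3, and from each companion list up to 5 genes with the smallest p among those called in a comparison, or up to 2 where none was called, plus genes said to be named after their values were seen. Members and lists were chosen with earlier results of these data known. Alternatives were other filters, normalisation, array weights, no trend, fits of the compared groups, and leaving out each array. Promoter windows came from RefSeq.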

Additional observations from a re-analysis of the deposited data

How the results depend on the processing

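Of 336 alternative counts and medians of the members, 320 stayed within 1.5 times the reported count or within 0.234 of the reported median, and 16 did not. The 0.234 is the mean SD of the members' array means within a group and exceeds the tumour deletion medians themselves. Of 755 alternative values of single called genes 690 stayed called, 65 lost the call and 0 reversed. Array weights moved the epithelial deletion comparison to 10 called members with a median of 0.57, female tumours to 1, both sexes to 1, and the difference between tumour and epithelial effects to 3 with a median of -0.40. With the same weights the median of deleted tumours against deleted epithelial cells was -0.80. A filter above the array median in 3 arrays, which leaves 20 members to test, called 18 of them lower in deleted tumours (26.4% of all genes) and 7 in control tumours (27.7%). Male tumours alone, chosen after seeing the data, called 8 in control samples (26.5% of all genes).

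Leaving out each array in turn kept 0 called members in the 7 comparisons of deletion, its differences and sex. The epithelial median ran between 0.53 without replicate 4 and 1.07 without replicate 3, with 12 to 26 members at an unadjusted p under 0.05. The median difference of effects ran between -1.03 and -0.43, and that of deleted tumours against deleted epithelial cells between -1.41 and -0.87, with replicate 6 and replicate 4 left out. The medians ran between 0.07 and 0.17 in male tumours and between -0.15 and 0.02 in female tumours. Deleted tumours had 27 to 30 called members. The control tumour comparison called 4 members without replicate 3, 8 without replicate 2 and up to 12 without replicate 8, of which 1 was higher. The cause of these shifts was not tested. No paired analysis was possible because the replicate numbers are unique over the series and are shared by no 2 groups. Signal over background was not given, so Klrk1 and Ncr1 could not be told from background, and 3 arrays a group limit every comparison.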
